A study of Homo sapiens with 12 samples.

Results

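The thrombospondins and the cell-surface receptors CD47 and CD36 were examined in 12 RNA-seq libraries from 2 human uterine leiomyosarcoma cell lines. The 7 genes were THBS1, THBS2, THBS3, THBS4, COMP (also called thrombospondin 5), CD47 and CD36. They were taken by gene symbol from a table of read counts that lists 60649 genes, and each symbol matched 1 row. The set was selected on measured values that the rule does not name. These were assumed to be the low THBS1 counts of drug-treated SK-UT-1B against its DMSO control, so that contrast is given as a description of these genes and carries no test.

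The lines differ in origin. SK-UT-1B was grown from a tumor in the uterus itself, and SK-LMS-1 from a tumor that had spread to the vulva. Cells were exposed for 72 h to partly inhibitory (IC30) concentrations, and every control received the solvent dimethyl sulfoxide (DMSO). SK-LMS-1 had 4 DMSO libraries, in a set whose labels begin with 2 (set 2) and a set whose labels begin with 4 (set 4). Of the treated SK-LMS-1 libraries, 2 received the gamma secretase inhibitor MK-0752 alone and are labelled with a first number of 2, and 2 received MK-0752 together with docetaxel and gemcitabine (here the combination) and are labelled with a first number of 4. SK-UT-1B had 2 DMSO libraries with a first number of 4 and 2 combination libraries with a first number of 3, so treatment and first number cannot be told apart in that line. By the study's methods, MK-0752 was dosed lower within the combination than alone, and the combination doses differed between the lines. Comparisons of the combination with MK-0752 alone, or between lines after the combination, therefore also differ in dose. Gamma secretase is the protease that releases the active part of Notch receptors, gemcitabine is a nucleoside analog and docetaxel stabilizes microtubules. The meaning of the first number was not given in the sources used here, and each line is a single cell line that stands for no other tumor. Nothing in the labels says that the libraries came from separate cultures, so the p-values below measure only the spread between these libraries, which may be technical.

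Thrombospondins are secreted, calcium-binding glycoproteins of the extracellular matrix. THBS1 and THBS2 form trimers and carry the type 1 repeats that bind CD36, and THBS1 can also activate latent TGF-beta. THBS3, THBS4 and COMP form pentamers without these repeats and are best known from cartilage, tendon and muscle. The C-terminal part of THBS1 binds CD47, which also restrains engulfment of a cell through SIRPA on macrophages, and CD36 additionally takes up fatty acids and oxidized lipoproteins.

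Libraries held 25250057 to 40709885 counted reads, and 30598 genes had 0 counts in every library. Between replicate libraries, 54 to 845 genes per group had no count in one and 50 or more in its partner. Levels below are CPM, the read count scaled to a common library total, after TMM scaling for library composition. Differences are log2 fold changes (log2FC) from edgeR's quasi-likelihood test, two-sided, with p adjusted by the Benjamini-Hochberg method (p adj) over the 21114 genes tested. A gene was called at a log2FC of at least 1 in size and a p adj under 0.05. The smooth muscle markers summed to 1243 to 1611 CPM in SK-LMS-1 and 154 to 265 CPM in SK-UT-1B, with DES at 0 in SK-LMS-1, MYOCD at 0 in SK-UT-1B and MYH11 near 0 in both. The epithelial markers summed to 171 to 266 CPM in SK-LMS-1, mostly KRT8 and KRT18, against 0.637 to 3.58 CPM in SK-UT-1B, where KRT8 and EPCAM were at 0. Platelets store THBS1, and of the 8 platelet markers 5 were at 0 in SK-LMS-1 and 7 in SK-UT-1B, PF4 and PPBP among them in both. The sum of the 8 endothelial markers was 56.2 to 102 CPM in SK-LMS-1, with TIE1 at a mean of 69.4 CPM, and 21.4 to 26.9 CPM in SK-UT-1B, where PECAM1 and CDH5 were at 0. The blood cell markers summed to at most 5.22 CPM in SK-LMS-1 and 0.71 CPM in SK-UT-1B. The part of these marker differences in the results below was not tested.

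The promoters of 3 genes are shown because THBS1 was abundant in one line and scarce in the other, while THBS2 and COMP were each at 0 in one line. CD36, which was also at 0 in SK-UT-1B and has several annotated starts, is not shown. Each RefSeq window (GRCh38.p14) runs 5′ to 3′ on the gene's strand from 250 bases before to 50 bases after the annotated start, and capitals mark the letters of the motifs searched. The windows lie at chr15:39580829-39581128 on the plus strand for THBS1, chr6:169253797-169254096 on the minus strand for THBS2 and chr19:18791256-18791555 on the minus strand for COMP.
THBS1: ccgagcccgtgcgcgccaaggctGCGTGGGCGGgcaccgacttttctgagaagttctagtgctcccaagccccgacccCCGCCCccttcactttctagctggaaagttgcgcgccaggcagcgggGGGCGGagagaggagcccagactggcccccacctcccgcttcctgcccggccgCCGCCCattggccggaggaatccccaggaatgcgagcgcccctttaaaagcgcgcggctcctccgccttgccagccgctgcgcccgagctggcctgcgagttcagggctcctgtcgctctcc
THBS2: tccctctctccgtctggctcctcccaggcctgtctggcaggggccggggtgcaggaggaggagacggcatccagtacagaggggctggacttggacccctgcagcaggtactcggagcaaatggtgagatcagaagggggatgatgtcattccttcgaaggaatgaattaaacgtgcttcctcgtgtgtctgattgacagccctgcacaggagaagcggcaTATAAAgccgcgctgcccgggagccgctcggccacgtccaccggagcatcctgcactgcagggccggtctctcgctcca
COMP: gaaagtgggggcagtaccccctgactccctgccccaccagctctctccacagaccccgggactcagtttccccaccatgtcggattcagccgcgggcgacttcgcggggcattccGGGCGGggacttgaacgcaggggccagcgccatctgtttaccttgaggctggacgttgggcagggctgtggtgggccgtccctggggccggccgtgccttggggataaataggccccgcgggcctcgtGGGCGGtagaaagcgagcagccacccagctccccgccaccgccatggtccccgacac

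Both strands were searched for the GC box as GGGCGG, the EGR1 motif as GCGTGGGCG, the TATA box as TATAAA, the AP-1 motif as TGANTCA, the E-box as CACGTG, the core bound by RBPJ (the nuclear partner of Notch) as TGGGAA, and the CArG box. The THBS1 window held 4 GC boxes and 1 EGR1 match, the latter overlapping a GC box. The THBS2 window held 1 TATA box, which began 29 bases before the start, and no GC box, and the COMP window held 2 GC boxes. Among 35116 promoter windows of the same length, 45% held a GC box, 0.795% the EGR1 letters and 11.5% the TATA letters. None of the 3 windows held the AP-1, E-box, RBPJ or CArG letters, which were present in 7.71%, 7.26%, 24% and 1.29% of windows. This does not hold for all members. Among windows not shown, a THBS3 window held 2 RBPJ matches, a THBS4 window 1 E-box, and some CD36 windows an RBPJ or AP-1 match. Other windows of these genes held none of the 4. The GC content was 70% for THBS1, 61.7% for THBS2 and 68.7% for COMP. These are matches of letters, not binding sites.

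Between the lines, THBS1, THBS2, CD47 and CD36 were higher in SK-LMS-1 and COMP was higher in SK-UT-1B, both after DMSO and after the combination. THBS3 and THBS4 were not called, with a log2FC below 0 in both comparisons. THBS2, COMP and CD36 passed the filter on low counts only through the line where they were detected. The THBS1 counts of SK-UT-1B are those assumed to have chosen the set. These 4 genes are described without a test. Of the other 3, CD47 was called in both comparisons, while 31.1% of all genes tested were called after DMSO (17% higher and 14.1% lower in SK-LMS-1) and 25.4% after the combination (15.6% higher and 9.88% lower). CD47, THBS3 and THBS4 were measured in the same SK-UT-1B libraries. Their p-values hold only if their own counts played no part in choosing the set. The plot of CPM in each library shows the 7 patterns side by side. In bulk RNA a difference in level cannot be told apart from a difference in the number of expressing cells.

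**Figure D1:**
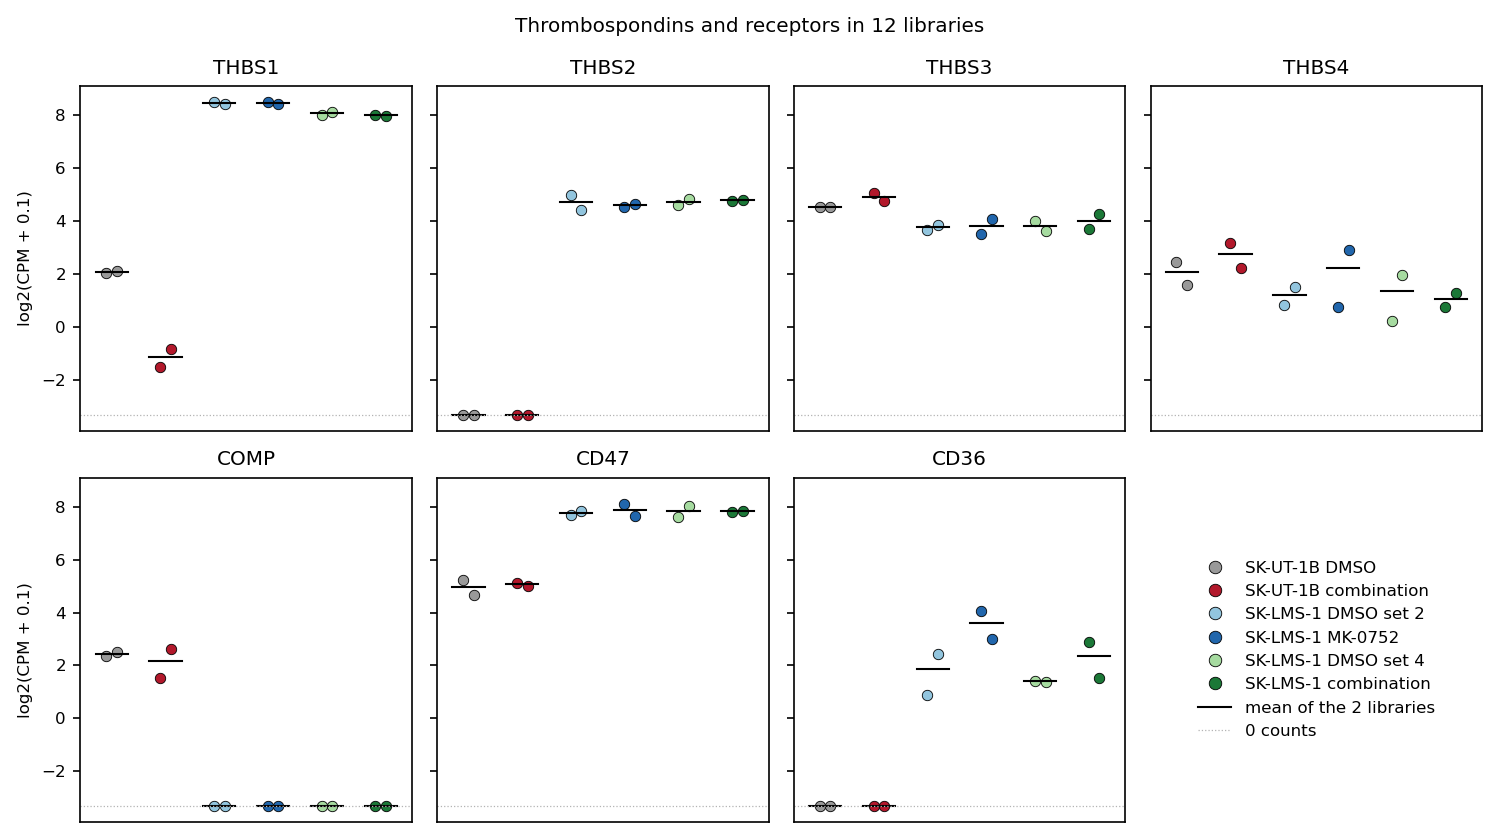
TMM-scaled level of each gene as log2(CPM + 0.1), with 1 point per library, a bar at the mean of the 2 libraries of a group and a dotted line at 0 counts. THBS1, THBS2, CD47 and CD36 lie higher in all 8 SK-LMS-1 libraries than in the 4 SK-UT-1B libraries, and COMP is at 0 counts in all 8 SK-LMS-1 libraries.

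THBS1 (ENSG00000137801.11, chr15:39581079-39599466, plus strand of hg38) was an abundant message of SK-LMS-1 and scarce in SK-UT-1B. It counted 12707 and 9551 reads in SK-LMS-1 DMSO set 2, 6334 and 10800 in set 4, 12846 and 12572 with MK-0752, and 8606 and 6096 with the combination. SK-UT-1B had 117 and 158 counts after DMSO and 9 and 13 after the combination. Every SK-LMS-1 library lay far above every SK-UT-1B library. The mean level after DMSO was 312 ± 51.4 CPM (SD, n = 4) in SK-LMS-1 and 4.12 ± 0.0993 CPM (SD, n = 2) in SK-UT-1B, a ratio of 75.7 and a log2FC of 6.23 (SE 0.19). After the combination the log2FC between lines was 9.52 (SE 0.25), a ratio of 719. These values use the THBS1 counts of SK-UT-1B that are assumed to have chosen the genes, so no p is given for THBS1 between lines.

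THBS2 (ENSG00000186340.17, chr6:169215780-169254050, minus strand), the closest relative of THBS1, was detected in SK-LMS-1 alone. Its counts were 1108 and 589 in DMSO set 2, 598 and 1090 in set 4, 822 and 914 with MK-0752, and 898 and 678 with the combination, against 0 in all 4 SK-UT-1B libraries. The 8 SK-LMS-1 libraries spanned 21.3 to 31.8 CPM. Against a limit of 3 counts per library, THBS2 of SK-LMS-1 was at least 288-fold higher with DMSO and at least 291-fold higher with the combination. An antisense gene, THBS2-AS1, shares 2249 exon bases with THBS2 (31.2% of its exon length) and had 31 to 151 counts in the SK-UT-1B libraries, where THBS2 itself had 0.

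THBS3 (ENSG00000169231.13, chr1:155195588-155209051, minus strand), a pentameric member known from skeletal tissue, was found in every library of both lines. It counted 440 and 394 reads in SK-LMS-1 DMSO set 2, 387 and 471 in set 4, 404 and 613 with MK-0752, and 434 and 465 with the combination. SK-UT-1B had 668 and 866 counts after DMSO and 1205 and 760 after the combination. The SK-UT-1B libraries were all above the SK-LMS-1 libraries in CPM (23.0 to 32.9 against 11.3 to 19.1). The log2FC of SK-LMS-1 against SK-UT-1B was −0.75 (SE 0.28, p adj = 0.0368) after DMSO and −0.90 (SE 0.33, p adj = 0.0431) after the combination. Neither reached the fold threshold. Over the other ways of processing the p adj ranged from 0.0241 to 0.0521 after DMSO and from 0.0274 to 0.151 after the combination. With 1 library left out, the log2FC after the combination was −1.21 to −0.67. No p is given for those fits, which leave 1 library in a group.

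THBS4 (ENSG00000113296.14, chr5:79991311-80083287, plus strand), a pentameric member of tendon and muscle matrix, was the thrombospondin whose replicate libraries differed most in each SK-LMS-1 group. SK-LMS-1 counted 59 and 76 reads in DMSO set 2, 26 and 148 in set 4, 56 and 275 with MK-0752, and 52 and 57 with the combination. SK-UT-1B had 157 and 108 counts after DMSO and 323 and 129 after the combination. The lines overlapped after DMSO, with a log2FC of −0.83 (95% interval −2.48 to 0.83, p adj = 0.433). They did not overlap after the combination, where the log2FC was −1.78 (95% interval −3.80 to 0.24, p adj = 0.182). Both intervals include 0.

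COMP (ENSG00000105664.11, chr19:18782773-18791305, minus strand), the pentameric thrombospondin of cartilage, had the pattern opposite to THBS2. It had 0 counts in all 8 SK-LMS-1 libraries. SK-UT-1B had 146 and 208 counts after DMSO and 102 and 172 after the combination. By the same limit COMP of SK-LMS-1 was at least 53.6-fold lower with DMSO and at least 41.7-fold lower with the combination. The latter limit averages SK-UT-1B libraries at 2.79 and 6.11 CPM, so it would be lower without library 3-3. No other annotated gene overlaps COMP.

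CD47 (ENSG00000196776.17, chr3:108043091-108091862, minus strand), the receptor for the C-terminal part of THBS1, was expressed in both lines. SK-LMS-1 counted 7081 and 6340 reads in DMSO set 2, 4839 and 10048 in set 4, 9751 and 7401 with MK-0752, and 7496 and 5491 with the combination. SK-UT-1B had 1085 and 950 counts after DMSO and 1267 and 898 after the combination. SK-LMS-1 libraries spanned 196 to 274 CPM and SK-UT-1B libraries 25.2 to 37.6 CPM, with no overlap. The ratio of means was 7.09 after DMSO, with a log2FC of 2.83 (SE 0.20, p adj = 5.78e-10), and 6.78 after the combination, with a log2FC of 2.76 (SE 0.21, p adj = 2.56e-09).

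CD36 (ENSG00000135218.19, chr7:80369575-80679277, plus strand), the receptor for type 1 repeats, was a low-level message of SK-LMS-1. Its counts were 61 and 147 in DMSO set 2, 63 and 97 in set 4, 591 and 289 with MK-0752, and 241 and 68 with the combination, and all 4 SK-UT-1B libraries had 0. CD36 of SK-LMS-1 was at least 33.1-fold higher with DMSO and at least 53.2-fold higher with the combination. The latter limit averages libraries at 7.24 and 2.79 CPM, so it would be lower without SK-LMS-1 library 4-1. The highest values lay in the MK-0752 libraries.

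The make-up of thrombospondin mRNA differed between the lines. On the scale of CPM per kb of exon, which allows genes of unlike length to be compared, THBS1 made up 76.3% to 86.8% of the summed thrombospondin level in the 8 SK-LMS-1 libraries. THBS2 contributed 6.67% to 10.8% there, THBS3 5.41% to 11.5% and THBS4 0.653% to 3.53%. In SK-UT-1B after DMSO, THBS3 made up 60.6% to 63.4%, COMP 19.8% to 22.8%, THBS4 7.94% to 14.3% and THBS1 5.36% to 5.84%. The type 1 repeat members therefore held most of the sum in SK-LMS-1 and the pentameric members in SK-UT-1B. The sum itself was 35.0 to 47.3 CPM per kb in SK-LMS-1 and 7.83 to 8.26 CPM per kb in SK-UT-1B after DMSO. After the combination, SK-UT-1B libraries held 65.9% to 71.5% THBS3, 9.04% to 22.3% COMP, 11.2% to 19.2% THBS4 and 0.269% to 0.569% THBS1.

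**Figure D2:**
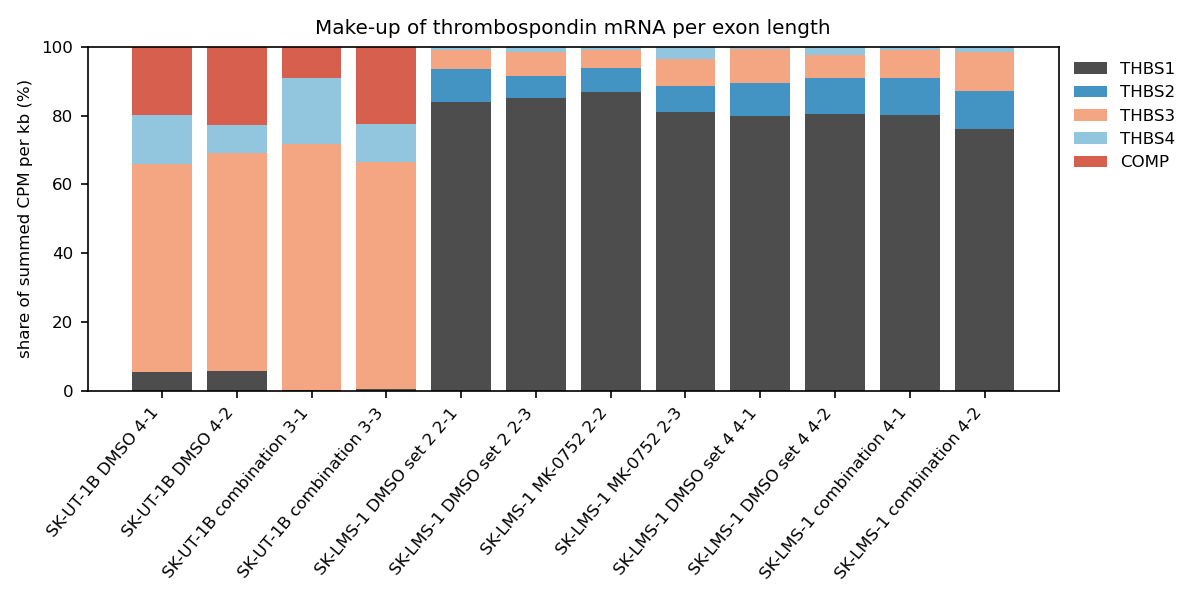
Share of each thrombospondin in the summed CPM per kb of exon, in percent, with 1 stacked bar per library. THBS1 fills 76.3% to 86.8% of the bar in SK-LMS-1, and THBS3 fills 60.6% to 71.5% in SK-UT-1B.

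The order of mean levels after DMSO in SK-LMS-1, in CPM per kb, was THBS1 (34.0), CD47 (27.0), THBS2 (3.67), THBS3 (2.96), THBS4 (0.507), CD36 (0.279) and COMP (0). Neighbours in this order overlapped in range, except CD47 and THBS2, THBS3 and THBS4, and CD36 and COMP. THBS1 and CD47 changed places when the length of the canonical transcript replaced that of all exons, an alternative added after seeing the data, at 40.02 and 42.01 CPM per kb. In SK-UT-1B after DMSO the order was THBS3 (4.99), CD47 (3.81), COMP (1.71), THBS4 (0.901) and THBS1 (0.45), with THBS2 and CD36 at 0. There no neighbours overlapped in range, although each group held only 2 libraries.

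No member was called between drug and DMSO within SK-LMS-1. After MK-0752 alone 0 of 7 genes were called, with 0.251% of all genes tested called, and after the combination 0 of 7, with 0.0237% called. At an unadjusted p under 0.05 edgeR gave 0 of the 7 in each, against 6.41% of all genes after MK-0752 and 4.33% after the combination. DESeq2 gave 0 of the 7 by either rule, and its calls took 0.516% and 0.137% of all genes. THBS1 had a log2FC of −0.02 (95% interval −0.34 to 0.31) after MK-0752 against DMSO set 2 and −0.08 (95% interval −0.40 to 0.25) after the combination against DMSO set 4. CD47 had a log2FC of 0.13 (95% interval −0.28 to 0.55) and −0.02 (95% interval −0.44 to 0.40) in the same comparisons. All of these intervals lie within a log2FC of 1 in either direction, as the plot of log2FC within SK-LMS-1 shows. For THBS2 the intervals were −0.85 to 0.56 after MK-0752 and −0.64 to 0.77 after the combination, and for THBS3 −0.63 to 0.75 and −0.49 to 0.90.

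**Figure D3:**
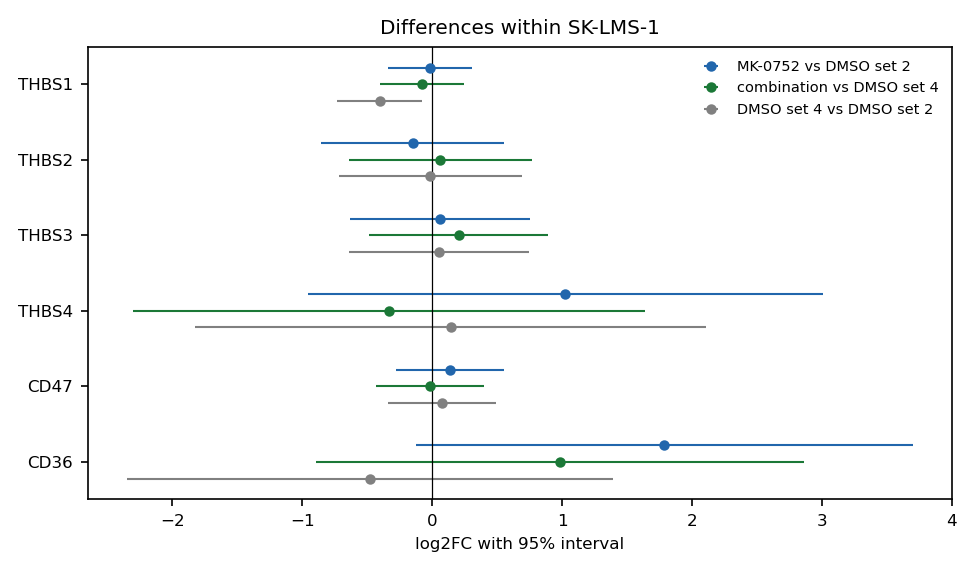
log2FC of 6 genes within SK-LMS-1 with its 95% interval, for MK-0752 against DMSO set 2, the combination against DMSO set 4 and DMSO set 4 against DMSO set 2 (COMP had 0 counts throughout). The intervals are narrow for THBS1 and CD47 and wide for THBS4 and CD36, and only that of THBS1 between the DMSO sets lies wholly on one side of 0.

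Of the 7 genes, CD36 had the largest log2FC in both drug comparisons of SK-LMS-1, but it did not pass the test. It stood at 1.75 and 5.33 CPM in DMSO set 2 against 16.6 and 7.85 CPM after MK-0752, and at 2.56 and 2.51 CPM in DMSO set 4 against 7.24 and 2.79 CPM after the combination. Treated and control libraries did not overlap in either comparison. With 2 libraries per group this is weak evidence, and the share of all genes tested that separate in this way was not counted. The log2FC was 1.79 (95% interval −0.12 to 3.70, p adj = 0.806) after MK-0752 and 0.99 (95% interval −0.90 to 2.87, p adj = 0.967) after the combination. Leaving out 1 library at a time gave 1.15 to 2.78 and 0.15 to 1.53. The difference between the effects was 0.80 (95% interval −1.83 to 3.44, p adj = 1). By edgeR, none of the 14 tested genes linked to CD36 in lipid uptake and control was called in either comparison. PPARG, a nuclear receptor that controls CD36, was among them. Any part of these genes in the CD36 values was not tested.

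THBS4 after MK-0752 rested on 1 library. The 56 and 275 counts of the treated libraries gave a log2FC of 1.03 (95% interval −0.96 to 3.01, p adj = 0.903) against DMSO set 2, and leaving out the library with 275 counts gave −0.50. Between the effects of MK-0752 and of the combination in SK-LMS-1 none of 7 genes was called, with 0.0379% of all genes called, and none had an unadjusted p under 0.05 by edgeR (5.18% of all genes) or DESeq2.

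THBS1 in SK-LMS-1 split by the first number of the label, in treated and DMSO libraries alike. The 4 libraries whose labels begin with 2 had 341.6 to 364.1 CPM (mean 353 ± 10.9, SD, n = 4), and the 4 that begin with 4 had 250.2 to 279.9 CPM (mean 261 ± 12.9, SD, n = 4). The sets did not overlap, while treated and DMSO libraries overlapped within each. Between the DMSO sets alone the log2FC of set 4 against set 2 was −0.40 (SE 0.16, p adj = 0.794), in a comparison where 0% of genes were called. THBS1 was the 1 gene of 7 with an unadjusted p under 0.05 there, by edgeR (5.67% of all genes) and by DESeq2, and none was called. The grouping of all 8 libraries by first number was made after the values were seen. When all 4 DMSO libraries served as the control, THBS1 had a log2FC of 0.17 after MK-0752 and −0.29 after the combination. The log2FC after MK-0752 took either sign with DMSO set 2 as the control too, within −0.07 to 0.02 when 1 library was left out.

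**Figure D4:**
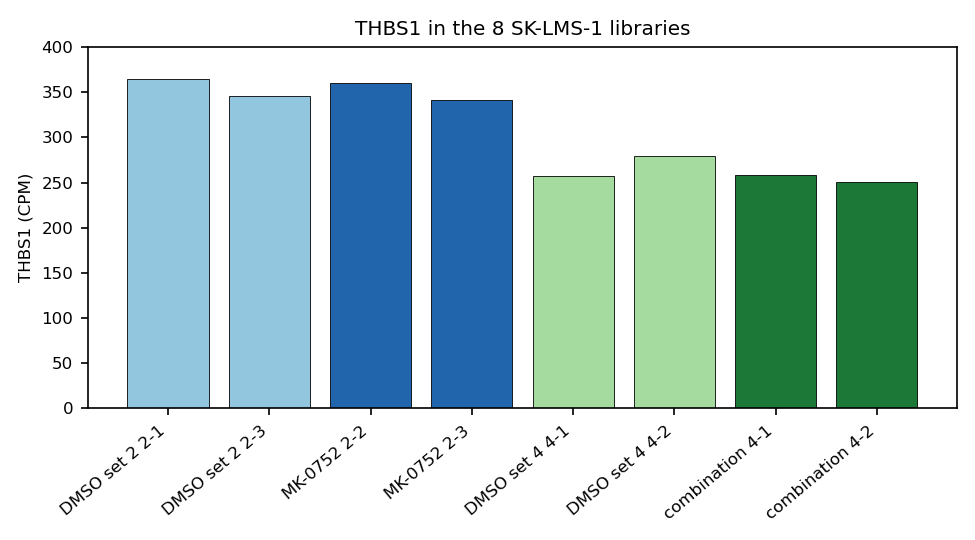
THBS1 level in CPM in each SK-LMS-1 library, with 1 bar per library named by treatment and label. The 4 libraries with a first number of 2 reach 341.6 to 364.1 CPM and the 4 with a first number of 4 reach 250.2 to 279.9 CPM, whether treated or not.

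The values of SK-UT-1B after the combination are given without a test. THBS1 stood at 4.05 and 4.19 CPM after DMSO and at 0.246 and 0.461 CPM after the combination, an 11.7-fold lower mean. The log2FC was −3.58 and ran from −4.05 to −3.18 when 1 library was left out. Of the other members, THBS3 was slightly higher in both treated libraries, and CD47, COMP and THBS4 overlapped with their controls. THBS3 had 23.0 and 23.1 CPM against 32.9 and 27.0 CPM, CD47 37.6 and 25.2 CPM against 34.6 and 31.9 CPM, and COMP 5.05 and 5.52 CPM against 2.79 and 6.11 CPM. THBS4 had 5.43 and 2.86 CPM against 8.83 and 4.58 CPM, and THBS2 and CD36 were at 0 throughout. The first number of the labels also differed between these groups, from 4 to 3, so its part in the THBS1 difference cannot be told apart from that of the drugs.

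Genes that overlap a member on the opposite strand could share reads with it if strand was ignored in counting, which the sources used here do not state. FSIP1 shares 448 exon bases with THBS1 (4.89% of its exon length) and had 23 to 185 counts per library, and THBS1-AS1 had 0 to 26 counts. THBS1-IT1, on the same strand inside THBS1, had 0 to 17 counts. THBS3 shares 25.9% of its exon bases with THBS3-AS1 (0 to 123 counts) and 3.16% with MTX1 (80 to 417 counts), and THBS4 shares 11.6% with THBS4-AS1 (0 to 86 counts). CD36 shares no exon bases with the genes on its opposite strand. The 9 and 13 THBS1 counts of treated SK-UT-1B were thus below the count of FSIP1 in every library.

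Genes of related pathways were read from lists of receptors, partners, TGF-beta genes, matrix genes and regulators, with some genes in more than one list. The filter asked for 2 libraries at 0.306 CPM or more. Genes that met it through the libraries of one line only were kept for their level in that line, so the counts of called genes leave them out. Not all of them differed, as 1906 of 6051 were called with DMSO. Without them, 16.1% of all genes were called higher in SK-LMS-1 with DMSO and 14.8% lower, and 14.4% and 10.9% with the combination. List medians cover all genes of the list tested, with those kept through one line among them, and are given as description only. Between the lines after DMSO, 8 of 17 other thrombospondin-binding receptors were higher in SK-LMS-1 and 2 lower, and the median log2FC of the list was 1.23 against 0 over all genes tested. ITGA3, an integrin chain, was at 1142 CPM in SK-LMS-1 and had 94 and 5 counts in SK-UT-1B, so its log2FC of 9.48 (p adj = 0.000677) rose to 12.99 without SK-UT-1B library 4-1. ITGA4, another integrin chain, met the filter through SK-LMS-1 only, and had 69 and 7 counts in SK-UT-1B. LRP1, the endocytic receptor that clears THBS1, was at 910 and 138 CPM (log2FC 2.72, SE 0.15, p adj = 9.21e-12). The beta chains ITGB5 (log2FC 3.65) and ITGB3 (log2FC 3.25) and the heparan sulfate proteoglycan SDC4 (log2FC 4.03) were also higher in SK-LMS-1. SDC3 (log2FC −1.08) and LRP5, a Wnt co-receptor (log2FC −1.81), were lower, although SDC3 was at −0.91, under the fold threshold, without SK-UT-1B library 4-1. CALR, which joins LRP1 in binding THBS1, had a log2FC of 0.68, ITGAV 0.96 and CACNA2D1, a calcium channel subunit, 0.11, and none of these was called. After the combination 8 of 17 were higher and 1 lower.

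Among 13 CD47 partners and modifiers, SK-LMS-1 had 3 higher and 3 lower with DMSO, 23.1% each way, with a median log2FC of 0.61. One of the lower genes, QPCT, rested on 1 library, with 0 and 174 counts in SK-UT-1B and a log2FC of −5.91. Without library 4-2 only 0 counts remained in SK-UT-1B, so the fitted value of 3.30 there is no measured fold. SIRPA, the CD47 counter-receptor, was at 115 CPM against 46.8 CPM in SK-UT-1B (log2FC 1.30, SE 0.16, p adj = 2.12e-06). GNAI1, an inhibitory G protein subunit, had a log2FC of 3.35. Of 12 genes linked to CD36 in lipid uptake and control, 5 were higher and 3 lower, with a median log2FC of −0.19. PPARG had 0 and 20 counts in SK-UT-1B and a log2FC of 6.12. The fitted value of 12.31 without library 4-2 is over 0 counts and is no measured fold either. PPARG and FABP4, a fatty acid carrier (at least 152-fold), were higher in SK-LMS-1, as CD36 was, while FABP5 (log2FC −3.46) and LPL, lipoprotein lipase (at least 85.8-fold lower), were lower. After the combination 5 of 13 were higher and 2 lower in the CD47 list, and 4 of 12 higher and 3 lower in the CD36 list. In the CD36 list the DMSO call of SLC27A1 was lost without SK-UT-1B library 4-1, and that of MSR1 was lost when any 1 of 4 libraries was left out.

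The list of latent TGF-beta activation had 9 of 16 genes higher and 1 lower in DMSO-treated SK-LMS-1, with a median log2FC of 2.16. TGFB1 was at 397 CPM against 88.6 CPM (log2FC 2.16, SE 0.18, p adj = 7.18e-09), and LTBP1, which tethers latent TGF-beta to the matrix, had a log2FC of 5.88. ENG, a TGF-beta co-receptor, was at least 1623-fold higher, and ITGB8, an integrin chain that activates latent TGF-beta, at least 1334-fold. NRROS, which presents latent TGF-beta on cells, was lower (log2FC −3.09, and −4.47 without SK-LMS-1 library 2-1). Of 20 TGF-beta response genes, 10 were higher, TGFBI (log2FC 7.15) among them, and 5 lower, with ID2 (log2FC −6.53, and −8.47 without SK-LMS-1 library 2-3) and ID3 (log2FC −3.54) lowest. Another of the lower genes, KLF10, was under the fold threshold without SK-UT-1B library 4-2. Their median log2FC was 1.30. After the combination 9 of 16 were higher and 2 lower in the first list, and 9 of 20 higher and 5 lower in the second.

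Matrix genes split in both directions. Of 10 other secreted matricellular proteins, with DMSO 4 were higher in SK-LMS-1 and 3 lower, among them FBLN1 (log2FC −6.37) and POSTN (log2FC −2.80). CCN1 was among the higher genes, with 0 and 18 counts in SK-UT-1B and a log2FC of 11.28. Without library 4-2 only 0 counts remained in SK-UT-1B, so the fitted value of 17.38 there is no measured fold. CCN5 had no more than 3 counts per library in SK-UT-1B and was at least 79.2-fold higher. The median log2FC of the 14 tested was 2.65 with undetected genes set at their limit. Of 21 matrix partners of COMP and other thrombospondins tested, 12 met the filter through one line only. Of the other 9, 4 were higher and 2 lower, and the median of all 21 was 0.50 with undetected genes at their limit and 1.60 from the fit. Among the 12, the proteases ADAMTS1, which cleaves THBS1, (at least 5315-fold) and ADAMTS12 (at least 1435-fold) were higher in SK-LMS-1. ADAMTS7 (at least 239-fold), which like ADAMTS12 cleaves COMP, and the cartilage collagens COL9A3 (at least 1284-fold) and COL2A1 (at least 286-fold) were lower, as COMP was. Of 9 other proteins with type 1 repeats, 2 were higher and 4 lower. The median over the 21 tested was −2.12, but 12 of them met the filter through one line only. The call was lost without SK-UT-1B library 4-1 for THSD1, one of the higher genes, and for PAPLN, one of the lower. Of the 12 set aside, SEMA5A had 13 and 0 counts in SK-UT-1B against at least 6121 in SK-LMS-1, THSD7A was at least 58.4-fold higher, RSPO4 at least 143-fold lower and ADGRB1 at least 94.6-fold lower. After the combination 4 of 10 matricellular genes were higher and 3 lower, 4 of 9 matrix partners higher and 2 lower, and 1 of 9 type 1 repeat genes higher and 2 lower.

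**Figure D5:**
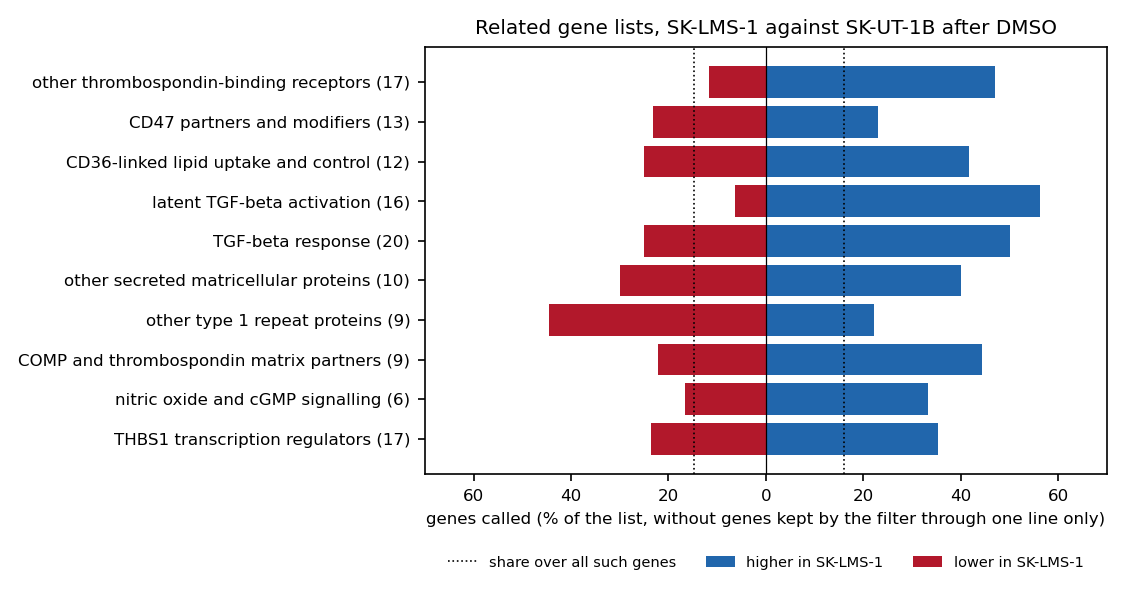
Share of each related list called higher (right) or lower (left) in DMSO-treated SK-LMS-1 against DMSO-treated SK-UT-1B, in percent of the genes whose number stands in parentheses, without genes that met the filter through one line only. Dotted lines mark the share over all such genes, 16.1% higher and 14.8% lower, and the bars range from 22.2% to 56.2% on the right and from 6.25% to 44.4% on the left.

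Of 6 genes of nitric oxide and cGMP signalling, which THBS1 inhibits through CD47, 2 were higher and 1 lower in DMSO-treated SK-LMS-1 (median log2FC 0.85 over the 10 tested), and 2 of 6 were higher and 0 lower with the combination. Of 17 regulators of THBS1 transcription, 6 were higher, led by JUN (log2FC 5.00) and SMAD3 (log2FC 3.87, and 4.52 without SK-UT-1B library 4-1), and 4 lower, among them USF1 (log2FC −1.62) and ID1 (log2FC −1.54), with a median of 0.17. After the combination 5 of 17 were higher and 2 lower. Within SK-LMS-1, CCN2, a matricellular TGF-beta target, fell after MK-0752 from 5936 and 4435 counts to 2767 and 2662 (log2FC −1.14, SE 0.18, p adj = 0.00488). CCN1, of the same matricellular list, had 21061 and 19432 counts in DMSO set 2 and 7773 and 7834 with MK-0752. It was not called by edgeR, and the 14 tested genes of that list had a median log2FC of 0.19. ID1, a repressor of THBS1 transcription, counted 583 and 612 reads in DMSO set 2, 1086 and 1026 in set 4, and 1585 and 2312 with MK-0752. Its log2FC was 1.47 against set 2 (SE 0.27, p adj = 0.0163) and 0.97 against all 4 DMSO libraries (p adj = 0.173), where it was not called. The call was also lost without DMSO library 2-1 (log2FC 1.28) or MK-0752 library 2-3 (log2FC 1.20). CCN2 had a log2FC of −1.14 against all 4 DMSO libraries as well (p adj = 0.000896). Of the 156 genes of the 10 lists that were tested, edgeR called 2 after MK-0752 in SK-LMS-1 (1.28%, against 0.251% of all genes) and DESeq2 called 3 (1.92%, against 0.516%). There 26 had an unadjusted edgeR p under 0.05 (16.7%, against 6.41%). After the combination in SK-LMS-1 both called 0, and 13 had an unadjusted edgeR p under 0.05 (8.33%, against 4.33%). In SK-UT-1B after the combination edgeR called 2 (1.28%, against 0.559%) and DESeq2 8 (5.13%, against 1.48%), and 32 had an unadjusted edgeR p under 0.05 (20.5%, against 10.5%). The 2 were EGR1 and BHLHE40, both higher, and EGR1 had 680 and 875 counts after DMSO against 7274 and 2429 after the combination (log2FC 2.61, and 1.85 without combination library 3-1 or 3.09 without 3-3). Neither was called in a fit on the 4 SK-UT-1B libraries alone (p adj = 0.18 for EGR1 and 0.555 for BHLHE40), and BHLHE40 fell under the fold threshold without the combination library 3-1 (log2FC 0.89). These SK-UT-1B libraries form the contrast assumed to have chosen the set, and the lists were chosen with earlier results known. The counts, shares and p-values of that contrast are therefore a description, and nothing is concluded from them.

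Over the 12 libraries, the profile of log2(CPM + 0.5) most like that of THBS1 among 14372 genes was that of UGT8 (Pearson r 0.996), followed by ANXA1 (0.995), PROCR (0.995), C1S (0.994) and MT1L (0.993). These points fall into 2 lines, so the values mostly describe genes that are high in SK-LMS-1 and low in SK-UT-1B. With the mean of each line subtracted, the highest were PGBD5 (0.967), SLC24A4 (0.958), ANKRD18B (0.957), KCNJ12 (0.953) and IGFBPL1 (0.949). PGBD5, ANKRD18B, KCNJ12 and IGFBPL1 had 0 CPM in SK-LMS-1, so their likeness rested on the 4 SK-UT-1B libraries, where PGBD5 had a mean of 10.8 CPM after DMSO and 3.93 CPM after the combination. Those 4 libraries form the contrast assumed to have chosen the set, so this order is a description only and nothing is concluded from it. With a pseudocount of 0.1, PROCR moved to rank 39 and SLC24A4 to rank 50.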

How the data were processed

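Per the labels and the study's methods, single-end reads from rRNA-depleted, strand-marking libraries were trimmed with Trim Galore 0.3.7 and aligned to hg38 with STAR 2.7.9a, and the authors deposited unnormalized whole-number counts per gene for the 12 libraries. The annotation release and the strand setting of the counting were not given in the sources used here. The authors used DESeq2 1.42.0 for their own comparisons. Counts were analysed here with edgeR 4.0.16 in R 4.3.3 (TMM scaling, filterByExpr, robust quasi-likelihood fit over 6 groups of 2 libraries, Benjamini-Hochberg adjustment over 21114 genes), and the fit was tested on simulated data. The 95% intervals use the moderated degrees of freedom. A gene with at most 3 counts in every library of a group was set at 3 counts per library for a limit on its fold. Gene positions and exon lengths came from GENCODE v44, in which 60507 gene IDs were found when the version was ignored. From each related list, the called genes with the 2 highest and 2 lowest log2FC and the direct binding partners could be named; values of some list genes are not reported here. The members and lists were chosen with earlier results of these data known. Alternatives were DESeq2, its size factors, other filters, other control sets, a replicate block and each library left out. Amounts at a few counts carry counting error that depth limits.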

Additional observations from a re-analysis of the deposited data

How the results depend on the processing

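CD47 stayed called between the lines, with DMSO and with the combination, and the number of the 7 genes called stayed at 0 in each comparison within SK-LMS-1, under every alternative and with each library left out in turn. Small log2FC within SK-LMS-1 changed sign in some settings, without any becoming significant, and the cause was not tested. With all 4 DMSO libraries as the control, THBS1 after MK-0752 had a log2FC of 0.17 and CD47 after the combination 0.019. With only genes of at least 50 mean counts, THBS1 after MK-0752 had 0.004 and THBS2 between the DMSO sets 0.021. For THBS2 between the DMSO sets, no filter beyond 1 count gave 0.0097 and a fit on only the libraries compared gave 0.014. The replicate block, which used the second number of the labels, gave −0.0091 for CD47 between the DMSO sets and changed no call. Those numbers named no shared culture, and the difference of library 4-1 from 4-2 correlated at −0.0068 between SK-LMS-1 DMSO and combination over 21114 genes.

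Leaving out 1 library at a time, the log2FC after MK-0752 in SK-LMS-1 ranged from −0.070 to 0.023 for THBS1, −0.42 to 0.17 for THBS2, −0.24 to 0.31 for THBS3, −0.50 to 1.75 for THBS4 and −0.11 to 0.34 for CD47. After the combination it ranged from −0.14 to 0.0076 for THBS1, −0.041 to 0.20 for THBS2, −0.079 to 0.46 for THBS3, −0.97 to 0.90 for THBS4 and −0.21 to 0.22 for CD47. Between the DMSO sets it ranged from −0.29 to 0.30 for THBS2, −0.14 to 0.21 for THBS3, −1.08 to 0.79 for THBS4, −0.16 to 0.27 for CD47 and −1.07 to 0.52 for CD36. For the difference between the drug effects in SK-LMS-1 it ranged from −0.032 to 0.11 for THBS1, −0.50 to 0.095 for THBS2, −0.45 to 0.13 for THBS3, −0.16 to 2.08 for THBS4 and −0.094 to 0.36 for CD47. A group left with 1 library was assumed to vary like the others. Such fits gave very small p-values for some genes, so none is printed, and calls kept or lost in them are weak evidence. THBS2 and CD36 in SK-UT-1B and COMP in SK-LMS-1 were at 0, so depth sets their fold limits. In the related lists, DESeq2 or no filter added up to 3 called genes per list in the drug comparisons.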
